A study of Mus musculus with 12 samples.

Results

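The genes described here set and remove methyl groups on cytosine: Dnmt1 and Uhrf1, which copy the mark at replication, Dnmt3a, Dnmt3b and Dnmt3l, which place it anew, and Tet1, Tet2, Tet3 and Tdg, which take it away. These 9 genes were chosen by name, with earlier results of these data known, from 35580 genes with a value. All 9 passed the filter on low counts that left 17424 genes for testing. The study sequenced polyadenylated RNA from mouse R1 embryonic stem cells (ESCs) and from spheroids grown out of them. WT cells were the parental R1 line, and CIDEA KO cells were a derived line without functional Cidea, a lipid droplet protein gene. The KO line was 1 clone (named 19.7 by the study), so what the deletion did and what the clone carried cannot be told apart. Both genotypes were sampled as ESCs at 0 h, kept in 10% FBS with LIF, and as 3D spheroids at 24 h and 48 h, kept in 15% FBS without LIF in growth factor-reduced Matrigel. Each of the 6 groups held 2 libraries. The study describes the libraries of a group as independent biological samples.

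DNMT1, brought to newly replicated DNA by UHRF1, copies the methylation of the old strand onto the new one. DNMT3A and DNMT3B methylate previously unmethylated sites, and DNMT3L, which has no catalytic activity of its own, stimulates both in germ cells and ESCs. The TET enzymes oxidise the methyl group, and TDG, a base excision repair glycosylase, cuts out the most oxidised forms. Naive ESCs keep high Tet1 and Tet2, and the passage towards the epiblast of the implanting embryo is known for a gain of methylation and of both DNMT3 enzymes. The methylation of the cells sequenced here was not measured.

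Dnmt3a lies on chromosome 12 (GRCm38, chr12:3806007-3914443, + strand) and has 2 groups of starts that give proteins of different length. The upstream starts give the long form (Dnmt3a-218 and Dnmt3a-201, 2724 coding bases), and an internal start gives the short form known from ESCs (Dnmt3a-205, 2067 coding bases). Their RefSeq promoter windows (GRCm38.p6, 300 bases around a start) are printed because the isoform shares below turn on them, beside those of Dnmt3b and of the Dnmt3l start used here. The windows are chr12:3806910-3807209 for the long form, chr12:3891494-3891793 for the short form, chr2:153649199-153649498 for Dnmt3b and chr10:78049592-78049891 for Dnmt3l, all on the + strand. Capitals mark each CG, the dinucleotide that these enzymes methylate, which reads the same on both strands.
Dnmt3a long form: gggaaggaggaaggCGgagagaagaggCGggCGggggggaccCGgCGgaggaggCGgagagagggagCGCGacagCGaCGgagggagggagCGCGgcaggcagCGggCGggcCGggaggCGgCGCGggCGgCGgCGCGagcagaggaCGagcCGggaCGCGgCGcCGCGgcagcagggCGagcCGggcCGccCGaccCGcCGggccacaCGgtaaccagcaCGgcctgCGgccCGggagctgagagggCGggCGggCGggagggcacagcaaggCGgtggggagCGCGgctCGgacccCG
Dnmt3a short form: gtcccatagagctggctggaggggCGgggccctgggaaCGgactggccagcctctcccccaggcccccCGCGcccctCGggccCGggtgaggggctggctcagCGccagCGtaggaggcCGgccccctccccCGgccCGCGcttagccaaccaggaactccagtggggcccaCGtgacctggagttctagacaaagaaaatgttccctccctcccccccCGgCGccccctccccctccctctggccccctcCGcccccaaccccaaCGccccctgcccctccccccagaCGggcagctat
Dnmt3b: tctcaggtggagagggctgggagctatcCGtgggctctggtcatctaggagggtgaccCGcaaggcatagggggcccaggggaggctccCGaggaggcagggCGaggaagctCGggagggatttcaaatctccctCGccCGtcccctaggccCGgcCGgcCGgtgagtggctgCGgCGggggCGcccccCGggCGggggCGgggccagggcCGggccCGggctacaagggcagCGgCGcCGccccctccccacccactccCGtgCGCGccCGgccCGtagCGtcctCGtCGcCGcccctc
Dnmt3l: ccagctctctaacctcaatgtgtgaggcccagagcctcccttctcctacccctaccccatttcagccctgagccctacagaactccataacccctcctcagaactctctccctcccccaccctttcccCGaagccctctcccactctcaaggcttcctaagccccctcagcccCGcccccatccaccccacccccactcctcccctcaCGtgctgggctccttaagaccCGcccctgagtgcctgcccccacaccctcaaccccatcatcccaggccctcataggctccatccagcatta

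The windows differed in CG content. The long-form start of Dnmt3a held 47 CG, a number that 1.44% of all 32851 RefSeq windows reached. The short-form start held 18 CG (29.7% of windows held as many), Dnmt3b 30 CG (11.7%) and Dnmt3l 4 CG (68.6%), against a median of 7 CG over all windows. Tet2 held the most among the 16 windows of the 9 genes, with 57 CG. Methylation of these windows was not measured in these libraries.

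Dnmt3b (chr2:153649450-153687730, + strand) varies inside its coding sequence. An exon of 60 bases (chr2:153670849-153670908) is skipped in some annotated transcripts. Adjoining exons of 70 and 119 bases (within chr2:153683608-153684477, 189 coding bases together) are skipped as a pair in others. That pair lies in the part coding for the catalytic domain, and isoforms without it are known as catalytically inactive. The sequences below show what is kept or lost. Capitals mark the exon bases in the first 2 and the bases after the join in the skipping form, and lower case marks 20 bases of the exons on either side.
Dnmt3b 60-base exon: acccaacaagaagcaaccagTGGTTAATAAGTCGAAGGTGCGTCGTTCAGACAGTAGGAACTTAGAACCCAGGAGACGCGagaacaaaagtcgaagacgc
Dnmt3b exon pair: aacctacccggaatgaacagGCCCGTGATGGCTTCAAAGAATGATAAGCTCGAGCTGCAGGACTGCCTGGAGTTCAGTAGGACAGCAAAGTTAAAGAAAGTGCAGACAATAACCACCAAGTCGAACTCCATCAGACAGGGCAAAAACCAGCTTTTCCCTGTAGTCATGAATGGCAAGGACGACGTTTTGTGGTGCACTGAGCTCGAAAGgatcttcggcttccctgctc
Dnmt3b join without the pair: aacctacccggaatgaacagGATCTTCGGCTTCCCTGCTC

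The tables hold estimated counts and TPM (a transcript level per length and library size, which can be compared between genes), summed here over the transcripts of a gene. Depth ran from 28998188 to 38509860 estimated counts a library. At equal depth, KO 24 h replicate 1 showed 15476 genes and the other libraries 17627 to 19689, so it stands apart, and results that rest on it are given with and without it. Cidea was listed at 0 TPM in the 6 KO libraries and at 0.836 to 5.06 TPM in WT. Summed TPM of 6 markers of naive cells ran from 1183 to 1448 at 0 h and from 259 to 347 at 48 h, and that of 5 primed markers from 26.2 to 53.7 and from 259 to 297. Summed TPM did not exceed 12 for 7 primitive endoderm markers, 27.2 for 5 trophectoderm markers (mostly Tfap2c), 4.73 for 4 markers of mesoderm and streak, 31.1 for 4 germ cell markers and 25.5 for 6 fibroblast markers, of which Thy1 made up most and Postn was at 0 throughout. Fewer cells of a type and less RNA per cell cannot be told apart in such bulk libraries.

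The order of the 9 genes by TPM changed over 48 h. In WT ESCs Dnmt3l (mean 281 TPM) and Uhrf1 (168 TPM) led, Tet1 (104.8 TPM) and Dnmt1 (103.8 TPM) did not differ beyond their spread, and Tet2 (56.4 TPM) stood above Dnmt3a (43.9 TPM), Dnmt3b (38.9 TPM) and Tdg (35.6 TPM), which overlapped. The sums of Tet1 and Tet2 hold short transcripts, and that of Tet2 also ones that keep an intron. In WT ESCs the full-length Tet1-206 held 49.9 and 51.7 TPM. Full-length Tet2-204 and Tet2-201 held 24.4 and 4.64 TPM in replicate 1 and 32.0 and 0.557 TPM in replicate 2. The places of Tet1 and Tet2 in this order therefore hold for gene sums only. At 48 h Dnmt3b (440.6 TPM) and Dnmt3a (286 TPM) led in WT, followed by Dnmt3l (188 TPM), Uhrf1 (143 TPM) and Dnmt1 (88.4 TPM), with Tdg (54.7 TPM) and Tet1 (51.5 TPM) close together and Tet2 at 13.2 TPM. Tet3 was the lowest in all 6 groups, at means of 2.35 to 4.43 TPM. The plot of TPM by library gives all values.

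**Figure D1:**
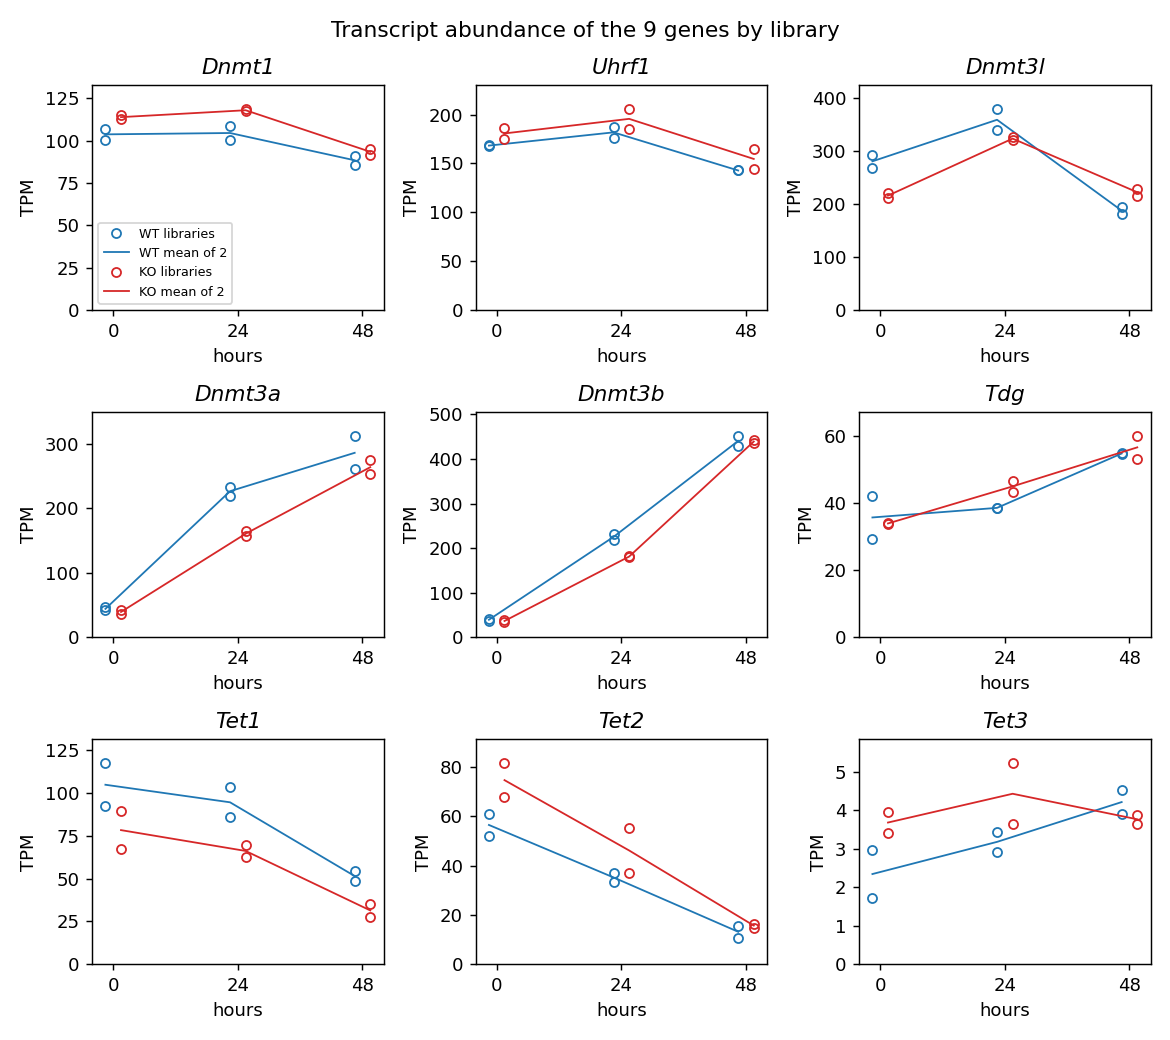
TPM (y axis, from 0) of the 9 genes against hours (x axis), with open circles for single libraries and lines for the mean of 2, in blue for WT and red for KO. Dnmt3a and Dnmt3b climb from 0 h to 48 h in both genotypes, Tet1 and Tet2 decline, and Dnmt3l is highest at 24 h.

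Both catalytic de novo methyltransferases rose in both genotypes. In WT, Dnmt3a stood at 46.2 and 41.5 TPM in the ESCs, 234 and 219 TPM at 24 h and 312 and 260.5 TPM at 48 h. The CIDEA KO libraries held 42.2 and 35.9 TPM at 0 h, 157 and 164 TPM at 24 h and 254 and 274 TPM at 48 h. All 24 h and 48 h libraries lay above all 0 h libraries. From 0 h to 48 h Dnmt3a rose 4.77-fold in WT (log2 fold change 2.25, SE 0.07, adjusted p = 1.6e-14, edgeR) and 5.96-fold in KO (log2 fold change 2.58, SE 0.07, adjusted p = 1.7e-15, edgeR). Most of the gain in WT came by 24 h, where the log2 fold change against 0 h was already 2.02 (SE 0.07).

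In WT, Dnmt3b stood at 40.9 and 36.9 TPM in the ESCs, 232 and 218 TPM at 24 h and 451 and 430.0 TPM at 48 h. In CIDEA KO the values were 37.3 and 35 TPM at 0 h, 180.1 and 182 TPM at 24 h and 442 and 436 TPM at 48 h. The groups of each time did not overlap with those of another time (24 h to 48 h log2 fold changes were 1.04 in WT and 1.38 in KO, beside 0.24 and 0.61 for Dnmt3a). Dnmt3b rose 11-fold in WT over 48 h (log2 fold change 3.46, SE 0.07, adjusted p = 4.2e-17, edgeR) and 13.2-fold in KO (log2 fold change 3.72, SE 0.07, adjusted p = 1.4e-17, edgeR). In TPM, Dnmt3b stood at 0.885 to 0.974 times Dnmt3a in the 4 libraries at 0 h and at 1.45 to 1.74 times at 48 h. These are ratios of gene sums, and the Dnmt3a sum at 48 h holds a fragment of 501 bases, Dnmt3a-210 (29.8 to 64.6 TPM). Dnmt3c, a rodent copy of Dnmt3b next to it that could share reads, reached at most 0.519 TPM.

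Dnmt3l, the catalytically inactive partner, took another course, highest at 24 h. In WT, Dnmt3l stood at 293 and 269 TPM in the ESCs, 379.8 and 339 TPM at 24 h and 194 and 182 TPM at 48 h. CIDEA KO cells gave 221 and 211 TPM at 0 h, 327 and 321 TPM at 24 h and 216 and 229 TPM at 48 h. The WT 48 h libraries lay below both WT 0 h libraries, while the KO ranges at 0 h and 48 h overlapped. Over 48 h Dnmt3l fell in WT (log2 fold change -0.61, SE 0.08, adjusted p = 4.8e-06, edgeR), and in KO the change was 0.09 (95% interval -0.07 to 0.25, adjusted p = 0.5, edgeR). Nearly all of its TPM sat on Dnmt3l-208 and Dnmt3l-201, which share a coding sequence of 1263 bases and start within the printed window or just after it. Dnmt3l shares 67 exon bases with Aire, on the opposite strand, at 16.7 to 32.7 TPM, and whether the counting used strand is not given in the sources used here.

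The maintenance pair changed little next to the de novo enzymes. In WT, Dnmt1 stood at 107 and 101 TPM in the ESCs, 108 and 101 TPM at 24 h and 85.7 and 91.2 TPM at 48 h. The CIDEA KO libraries held 115 and 113 TPM at 0 h, 117 and 119 TPM at 24 h and 91.7 and 95.3 TPM at 48 h. The 48 h libraries were the lowest of each genotype. Dnmt1 fell over 48 h in WT (log2 fold change -0.27, SE 0.07, adjusted p = 0.0074, edgeR) and in KO (log2 fold change -0.28, SE 0.07, adjusted p = 0.0051, edgeR). Single libraries decided these calls: without WT 0 h replicate 1 the WT change was -0.21 (adjusted p = 0.094), without WT 48 h replicate 1 it was -0.21 (adjusted p = 0.12), and without KO 48 h replicate 1 the KO change was -0.22 (adjusted p = 0.09).

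In WT, Uhrf1 stood at 168 and 168 TPM in the ESCs, 187 and 176 TPM at 24 h and 143 and 143 TPM at 48 h. In CIDEA KO the values were 175 and 186 TPM at 0 h, 186 and 206 TPM at 24 h and 145 and 164 TPM at 48 h. Uhrf1 was lowest at 48 h in WT, and in KO the 48 h libraries lay below those of 0 h and 24 h. Over 48 h it fell in WT (log2 fold change -0.22, SE 0.07, adjusted p = 0.02, edgeR), a call lost without any 1 of the 4 WT libraries compared (changes of -0.23 to -0.20, adjusted p from 0.078 to 0.13). In KO the change was -0.09 (95% interval -0.23 to 0.04, adjusted p = 0.37, edgeR). The ratio of Uhrf1 to Dnmt1 TPM stayed between 1.52 and 1.75 in all 12 libraries.

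Among the dioxygenases, Tet1 and Tet2 fell at 48 h in both lines, and Tet3 stayed rare. In WT, Tet1 stood at 117 and 92.3 TPM in the ESCs, 85.9 and 103 TPM at 24 h and 48.6 and 54.3 TPM at 48 h. CIDEA KO cells gave 89.6 and 67 TPM at 0 h, 62.9 and 69.4 TPM at 24 h and 27.7 and 35.1 TPM at 48 h. All 4 libraries at 48 h lay below the 8 others. Tet1 fell in WT (log2 fold change -1.13, SE 0.16, adjusted p = 0.0011, edgeR) and in KO (log2 fold change -1.37, SE 0.17, adjusted p = 3.0e-04, edgeR). Part of its TPM sat on short transcripts such as Tet1-209 (47 codons), and the main full-length transcript, Tet1-206 (6117 coding bases), went from 49.9 and 51.7 TPM to 14.1 and 21.8 TPM in WT over 48 h. The rarer Tet1-201 (6021 coding bases) went the other way in WT, from 0.936 and 3.6e-04 TPM to 8.79 and 2.87 TPM. In KO Tet1-201 held 3.11 and 1.14 TPM at 0 h and 2.88 and 0.339 TPM at 48 h.

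In WT, Tet2 stood at 60.9 and 52 TPM in the ESCs, 37 and 33.4 TPM at 24 h and 10.8 and 15.6 TPM at 48 h. The CIDEA KO libraries held 81.4 and 67.8 TPM at 0 h, 36.8 and 55.4 TPM at 24 h and 14.9 and 16.5 TPM at 48 h. Tet2 was lower at each later time in WT, with no overlap between times, and likewise in KO. It had the largest decline of the 9 genes, 3.48-fold in WT (log2 fold change -1.80, SE 0.17, adjusted p = 3.0e-05, edgeR) and 4.43-fold in KO (log2 fold change -2.15, SE 0.17, adjusted p = 7.0e-06, edgeR). Among transcripts for a whole TET2 protein, Tet2-204 (5760 coding bases) held the most in the mean over the libraries. In WT ESCs it held 24.4 and 32.0 TPM, and part of the gene sum lay on short transcripts and ones that keep an intron.

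In WT, Tet3 stood at 1.73 and 2.96 TPM in the ESCs, 2.93 and 3.44 TPM at 24 h and 3.9 and 4.54 TPM at 48 h. In CIDEA KO the values were 3.96 and 3.4 TPM at 0 h, 5.22 and 3.64 TPM at 24 h and 3.88 and 3.66 TPM at 48 h. Both WT libraries lay below both KO libraries at 0 h and above them at 48 h. Tet3 rose in WT (log2 fold change 0.90, SE 0.21, adjusted p = 0.0037, edgeR), a call lost without WT 0 h replicate 1, its lowest library (log2 fold change 0.57, adjusted p = 0.078). In KO the change was 0.13 (95% interval -0.31 to 0.57, adjusted p = 0.76, edgeR), and the difference between the genotypes in this change did not pass the test (-0.77, SE 0.30, adjusted p = 0.72).

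Tdg, the excision step after the TET enzymes, went the other way from Tet1 and Tet2. In WT, Tdg stood at 42 and 29.3 TPM in the ESCs, 38.6 and 38.4 TPM at 24 h and 54.8 and 54.6 TPM at 48 h. CIDEA KO cells gave 33.7 and 34 TPM at 0 h, 43.3 and 46.5 TPM at 24 h and 59.8 and 53.2 TPM at 48 h. All 48 h libraries lay above all others. Tdg rose 1.5-fold in WT (log2 fold change 0.58, SE 0.11, adjusted p = 6.1e-04, edgeR) and 1.73-fold in KO (log2 fold change 0.79, SE 0.11, adjusted p = 2.0e-05, edgeR). Its processed copy Tdg-ps was given 5.58 to 10.9 TPM, so some reads of Tdg could sit on the copy or the reverse. Tdg also shares 367 exon bases with Glt8d2 on the opposite strand, which reached at most 2.17 TPM.

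Counted together, all 9 genes passed the test between 0 h and 48 h in WT (4 higher and 5 lower), where 23.6% of all genes did (11.1% higher and 12.5% lower). In KO 6 passed (3 higher and 3 lower), where 25.0% did (12.1% higher and 12.8% lower). Between 0 h and 24 h, 4 of 9 passed in WT against 15.0% of all genes, and 5 of 9 in KO against 18.6%. Between 24 h and 48 h, 7 of 9 passed in each genotype, against 8.14% in WT and 9.95% in KO. The median log2 fold change of the 9 over 48 h was -0.22 in WT and 0.09 in KO, beside 0.02 and 0.01 over all genes. The 9 were chosen with earlier results of these data known, so these counts are descriptions and no test of the group. Without KO 24 h replicate 1, the counts were again 9 and 6 over 48 h, 5 in WT and 5 in KO from 0 h to 24 h, and 8 and 7 from 24 h to 48 h. Without WT 24 h replicate 1, 2 passed between 0 h and 24 h in WT. The count from 24 h to 48 h was 4 in WT without WT 24 h replicate 2 or WT 48 h replicate 2, and 4 in KO without KO 48 h replicate 1.

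**Figure D2:**
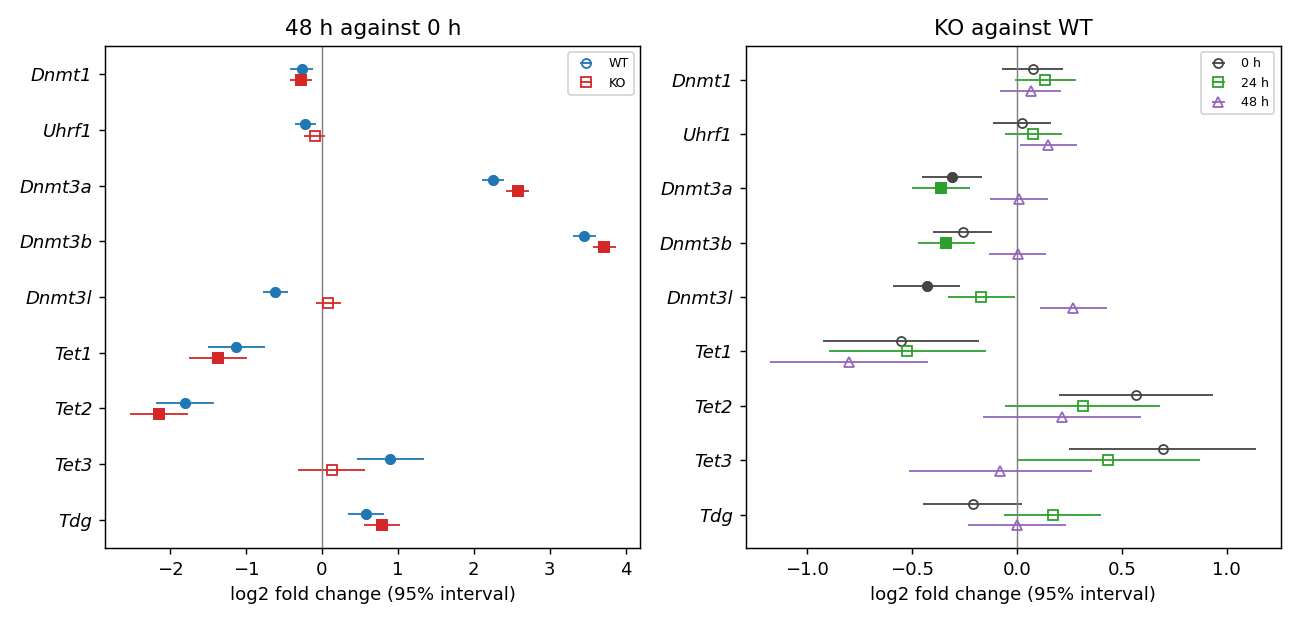
Log2 fold change (x axis) of each gene with its 95% interval from edgeR, from 0 h to 48 h on the left (blue circles WT, red squares KO) and KO against WT on the right (grey circles 0 h, green squares 24 h, purple triangles 48 h). Filled symbols passed an adjusted p of 0.05. Dnmt3a and Dnmt3b stand far to the right over time, and KO against WT they lie below 0 at 0 h and 24 h and at 0 at 48 h.

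Summed over all their transcripts, the 2 de novo enzymes lay below the 3 Tet genes at 0 h and above them at 24 h. Dnmt3a plus Dnmt3b made up 0.484 to 0.533 times the summed Tet TPM in WT ESCs, 3.13 to 3.7 times at 24 h and 9.28 to 12.1 times at 48 h. In KO the ratio was 0.454 to 0.513 at 0 h, 2.69 to 3.21 at 24 h and 12.9 to 15 at 48 h. The Tet sums hold short transcripts and ones that keep an intron. In WT ESCs the main full-length transcripts held less, 49.9 and 51.7 TPM for Tet1-206 and 24.4 and 32.0 TPM for Tet2-204. The ratio at 0 h, and whether it lay below 1, therefore depend on which transcripts are summed. At 48 h the size of the ratio does too, as the Dnmt3a sum then holds the fragment Dnmt3a-210 at 29.8 to 64.6 TPM. These are ratios of mRNA levels, and protein and activity were not measured. The make-up of the Tet pool also differed: Tet1 was 62.7 to 65.2% of summed Tet TPM in WT ESCs and 48.5 to 51.2% in KO ESCs, and 73 to 76.9% and 59.7 to 63.5% at 48 h. At each time both KO libraries lay below both WT libraries in this share.

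**Figure D3:**
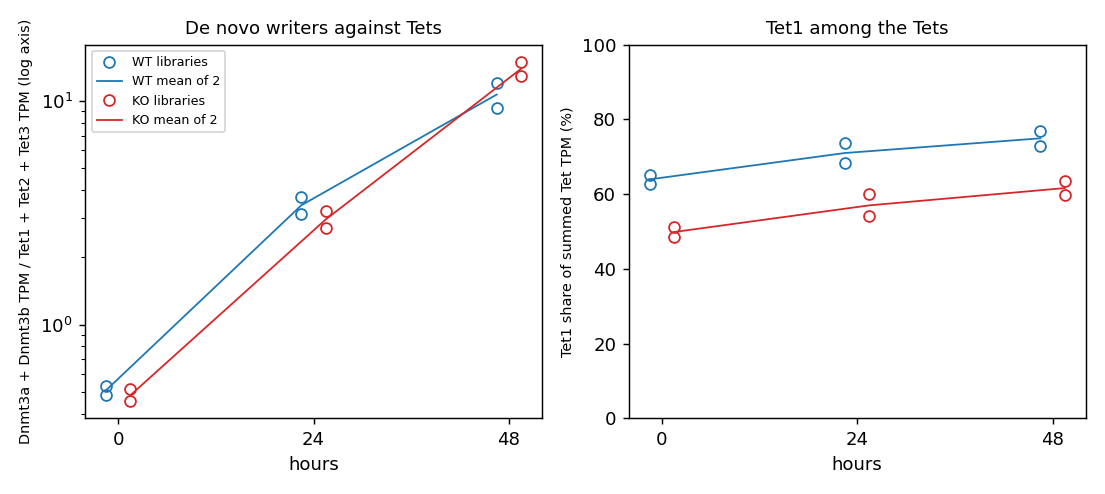
Left, the ratio of summed Dnmt3a and Dnmt3b TPM to summed Tet1, Tet2 and Tet3 TPM (log axis) against hours. Right, the Tet1 share of summed Tet TPM in percent. Circles are single libraries and lines the mean of 2, blue for WT and red for KO. The ratio climbs steadily in both genotypes and the Tet1 share is lower in KO at each time.

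KO against WT, 2 of the 9 genes were lower at 0 h (0.987% of all genes were), 2 at 24 h (1.02%) and none at 48 h (0.476%), and no member was higher at 0, 24 or 48 h (0.275%, 0.448% and 0.195% of all genes were). At an unadjusted p under 0.05, 6, 4 and 3 of the 9 differed at 0, 24 and 48 h, beside 1745, 2177 and 1349 of the 17424 genes. DESeq2 called 4, 2 and 1 of the 9, and 375, 449 and 232 of all genes. Dnmt3a was lower in KO at 0 h (log2 fold change -0.31, SE 0.07, adjusted p = 0.023, edgeR) and at 24 h (-0.36, SE 0.07, adjusted p = 0.0068). In TPM the KO and WT libraries overlapped at 0 h and did not at 24 h. At 48 h the difference was 0.01 (95% interval -0.13 to 0.15). The 0 h call was lost without WT 0 h replicate 1 (-0.25, adjusted p = 0.3), KO 0 h replicate 1 (-0.36, adjusted p = 0.088) or KO 0 h replicate 2 (-0.25, adjusted p = 0.5).

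Dnmt3b was -0.26 at 0 h (SE 0.07, adjusted p = 0.071, edgeR, not called), lower at 24 h, with both KO libraries under both WT libraries, and 0.00 at 48 h (95% interval -0.13 to 0.14). Without WT 24 h replicate 1 neither 24 h call held (Dnmt3a -0.34, adjusted p = 0.13, and Dnmt3b -0.29, adjusted p = 0.23), and without KO 24 h replicate 1, the library that stands apart, both held. Averaged over the 3 times, Dnmt3a (-0.22, SE 0.04, adjusted p = 0.0014) and Dnmt3b (-0.20, SE 0.04, adjusted p = 0.0032) were lower in KO. With Tet1, 3 of the 9 were lower over all times and none higher, where 2.84% of all genes were lower and 2.19% higher. The change of the genotype difference from 0 h to 48 h was 0.32 for Dnmt3a (SE 0.10, adjusted p = 0.43) and 0.26 for Dnmt3b (SE 0.09, adjusted p = 0.64), so that a loss of the difference by 48 h was not shown by that test. Of the 5 markers of primed cells, 2 were called lower in KO at 0 h, 2 at 24 h and none at 48 h, with none higher. Of all genes, 0.987%, 1.02% and 0.476% were lower. The median log2 differences of the 5 were -0.22, -0.92 and -0.13. Their summed level was 48.8 to 53.7 TPM in WT and 26.2 to 29.9 TPM in KO at 0 h, 166 to 175 and 124 to 140 TPM at 24 h, and 272 to 297 and 259 to 286 TPM at 48 h. Of the 6 naive markers 1 was called higher in KO at 0 h and 1 at 24 h, where 0.275% and 0.448% of all genes were. The part of these markers in the differences of Dnmt3a and Dnmt3b was not tested.

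For Dnmt3l, the edgeR test of a genotype difference that changed with time gave a call. Dnmt3l was lower in KO ESCs (log2 fold change -0.43, SE 0.08, adjusted p = 0.0041, edgeR), where both KO libraries lay under both WT libraries, at -0.17 at 24 h (adjusted p = 0.36), and at 0.27 at 48 h (adjusted p = 0.16), where both KO libraries lay above both WT libraries. The difference at 48 h minus that at 0 h was 0.70 (SE 0.11, adjusted p = 0.011, edgeR), in a test that 0.0344% of all genes passed in this direction and 0.0402% in either. At an unadjusted p under 0.05, 4 of the 9 changed in this way (Dnmt3l, Dnmt3a, Dnmt3b and Tet3), beside 1003 of the 17424 genes, and DESeq2 called 2 of the 9, Dnmt3l and Dnmt3a, beside 72 genes in all. The Dnmt3l call was lost with transcript length offsets (adjusted p = 0.23, edgeR) and with limma on either log2 TPM scale (adjusted p = 0.6 and 0.55). Of all genes, length offsets called 2 and limma called 0 on either scale, beside 7 in the main fit. It was also lost without WT 0 h replicate 1 (0.61, adjusted p = 0.1), WT 48 h replicate 2 (0.66, adjusted p = 0.07) or KO 0 h replicate 2 (0.66, adjusted p = 0.097). For the difference at 24 h minus that at 0 h, edgeR called none of the 9, beside 0.0115% of all genes, and 2 of the 9 had an unadjusted p under 0.05, beside 1029 of all genes. The call of Dnmt3l at 0 h was lost without WT 0 h replicate 1 (-0.35, adjusted p = 0.099) or KO 0 h replicate 2 (-0.39, adjusted p = 0.11).

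Tet1 differed between KO and WT by -0.55 at 0 h, -0.52 at 24 h and -0.80 at 48 h on the log2 scale (SE 0.16, 0.16 and 0.17), none past the test alone (adjusted p = 0.25, 0.22 and 0.11, edgeR). In TPM both KO libraries lay under both WT libraries at each time. Over all times the difference was -0.63 (SE 0.09, 95% interval -0.84 to -0.41, adjusted p = 0.0067, edgeR). Tet2 was 0.36 (SE 0.10, adjusted p = 0.063), and passed without KO 24 h replicate 1 (0.46, adjusted p = 2.2e-07) and without KO 24 h replicate 2 (0.25, adjusted p = 0.0012). The values for Dnmt1 were 0.09 (95% interval 0.01 to 0.18), for Uhrf1 0.08 (0.00 to 0.16), for Tet3 0.35 (0.10 to 0.60) and for Tdg -0.01 (-0.15 to 0.12), none of which passed. The spread was estimated over all 12 libraries, and these tests moved without either KO 24 h library. Without replicate 1, Tet1 (-0.55, adjusted p = 2.1e-05), Tet2 (0.57, adjusted p = 3.8e-05), Tet3 (0.70, adjusted p = 0.046) and Dnmt3b (-0.25, adjusted p = 0.038) were also called at 0 h, Tet2 at 24 h (0.59, adjusted p = 9.8e-04) and Tet1 at 48 h (-0.80, adjusted p = 9.5e-08). Without replicate 2, Tet1 (-0.55), Tet2 (0.56) and Dnmt3b (-0.26) were also called at 0 h, Tet1 at 24 h (-0.84, adjusted p = 8.4e-07) and 48 h (-0.81, adjusted p = 1.5e-07), and Tet3 over all times (0.41, adjusted p = 0.018).

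Tet1 lies on chromosome 10 (chr10:62804570-62908996, - strand), in a stretch whose genes were lower in KO. Of 24 other tested genes within 1 Mb, 15 were called lower over all times, none higher, and 23 had a negative log2 fold change, with a median of -0.71 beside -0.00257 over all genes. Of all genes, 2.84% were called lower and 2.19% higher. The nearest called genes were Slc25a16, a mitochondrial carrier gene 11.6 kb away (log2 fold change -0.88, SE 0.11), Ccar1 at 12.3 kb (-0.22, SE 0.05), the nuclease gene Dna2 at 38 kb (-0.66, SE 0.07), Rufy2 at 71.2 kb (-0.72, SE 0.08), the splicing factor gene Hnrnph3 at 106 kb (-0.68, SE 0.07) and the helicase gene Ddx50 at 153 kb (-0.68, SE 0.07). Their median lay inside the 95% interval of Tet1. The genes at each time had medians of -0.73 at 0 h, -0.71 at 24 h and -0.75 at 48 h. An effect on Tet1 itself and one on the whole stretch in this clone cannot be told apart.

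The other members on chromosome 10 had no such neighbours. Within 1 Mb of Dnmt3l (chr10:78041947-78063622), 2 of 33 tested genes were called lower and none higher (Aire, -0.55, SE 0.11, and Cstb, -0.47, SE 0.08, named after their values were seen), with a median of -0.03. Within 1 Mb of Tdg (chr10:82629828-82650799), 1 of 29 was called higher and none lower, with a median of 0.03. Beside both counts, 2.84% of all genes were called lower and 2.19% higher.

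**Figure D4:**
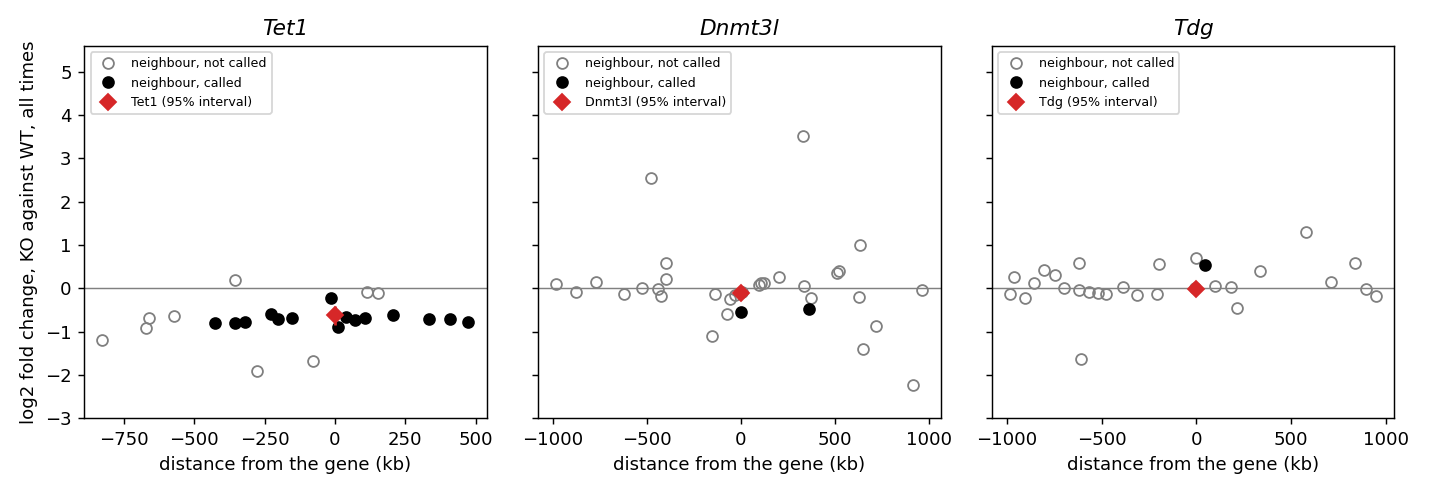
Log2 fold change of KO against WT over all times (y axis) for tested genes within 1 Mb of Tet1, Dnmt3l and Tdg, against their distance from the member in kb (x axis). Filled black circles were called, open grey circles were not, and the red diamond is the member with its 95% interval. The neighbours of Tet1 lie at a median of -0.71 with Tet1 among them, and those of Dnmt3l and Tdg at medians of -0.03 and 0.03.

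Transcripts from the internal start, the short form, made up most of Dnmt3a in every library in TPM. In WT their share was 72.1 and 67% at 0 h, 68.4 and 69.3% at 24 h and 62.3 and 60.9% at 48 h. In KO it was 70 and 63.4%, 78.2 and 69.2% and 60.8 and 65%. Both forms stood higher at 48 h than at 0 h: Dnmt3a-205 went from 33.3 and 27.8 TPM to 195 and 159 TPM in WT, and the long Dnmt3a-218 from 10.4 and 9.04 TPM to 41.5 and 39.4 TPM. The long form took 20.9 to 27.9% of TPM in the 4 libraries at 0 h and 13.8 to 18.5% in the 4 at 48 h, without overlap (mean difference -8.36 percentage points, two-sided exact permutation p = 0.029, the smallest that 4 against 4 allow, and 0.11 adjusted over the 15 share tests). In estimated counts, which are not per length, the long form held 54.1 to 61.6% at 0 h and 45.3 to 51.8% at 48 h.

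Whether the share of the short form itself changed depends on what it is a share of. In TPM it moved by -5.86 points from 0 h to 48 h (exact permutation p = 0.057, n = 4 and 4) while Dnmt3a-210, a fragment of 501 bases at the 3′ end, went from 0 to 2.47 TPM to 29.8 to 64.6 TPM. In estimated counts the short form moved by 6.0 points (exact permutation p = 0.14), and among transcripts with over 2000 coding bases it went from 71.2 to 77% to 76.7 to 81.9%. The annotated Dnmt3a-205 is 2328 bases long and Dnmt3a-218 8737, so reads in the long 3′ end could be given only to transcripts that include it, and how far that moves these shares was not tested. The difference between KO and WT was 1.52 points for the long form over all 12 libraries (exact permutation p = 0.55, n = 6 and 6, shuffled across the 3 times, whose spread enters the test).

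The make-up of Dnmt3b differed between 0 h and 48 h. Transcripts without the 70- and 119-base exons, the inactive kind, made up 43.4 and 50.1% of full-length Dnmt3b TPM in WT at 0 h, 30.7 and 30.5% at 24 h and 22.5 and 20.7% at 48 h. In KO the share was 51.5 and 35.9% at 0 h, 41.5 and 35.1% at 24 h and 26.8 and 28.5% at 48 h. Every library at 48 h lay below every library at 0 h, a mean difference of -20.6 percentage points (two-sided exact permutation p = 0.029, the smallest that 4 against 4 allow, 0.11 adjusted over the 15 share tests), so that it did not pass after adjustment. The level of the skipping form was higher at 48 h all the same, from 17.5 and 18.5 TPM to 99.4 and 86.2 TPM in WT, while that of transcripts with all 3 variable exons went from 22.2 and 18.4 TPM to 337 and 325 TPM.

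At 24 h and at 48 h both KO libraries held a larger share of the skipping form than both WT libraries, also without KO 24 h replicate 1, the higher of the 2 at 24 h. At 48 h the means differed by 5.99 points, at 0 h by -3.06 points with overlap, and 2 against 2 cannot give an exact permutation p below 0.33. Over all times the difference was 3.53 points (exact permutation p = 0.55, n = 6 and 6), in a test that shuffles libraries across the 3 times, so that the spread between times enters it. The 60-base exon was kept in nearly all Dnmt3b: transcripts without it made up 0 to 5.25% over the 12 libraries. Dnmt3b-208 carried most of the skipping form and Dnmt3b-202, Dnmt3b-207 and Dnmt3b-201 most of the rest. A transcript usage test across all genes (edgeR diffSpliceDGE) called none of the 64 tested transcripts of the 9 genes in 48 h against 0 h in WT, in KO, or KO against WT over all times, where 0.0488%, 0% and 0.0675% of 53320 transcripts were called and 5, 4 and 5 of the 64 had an unadjusted p under 0.05. A gene-level usage test in limma (diffSplice on log2(TPM + 1), not on counts) called Dnmt3a in WT and Dnmt3b in both genotypes (adjusted p = 9.8e-04, 0.0019 and 0.0011). It called 233 of 11489 genes in WT and 72 in KO, where edgeR at gene level called 10 and none.

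**Figure D5:**
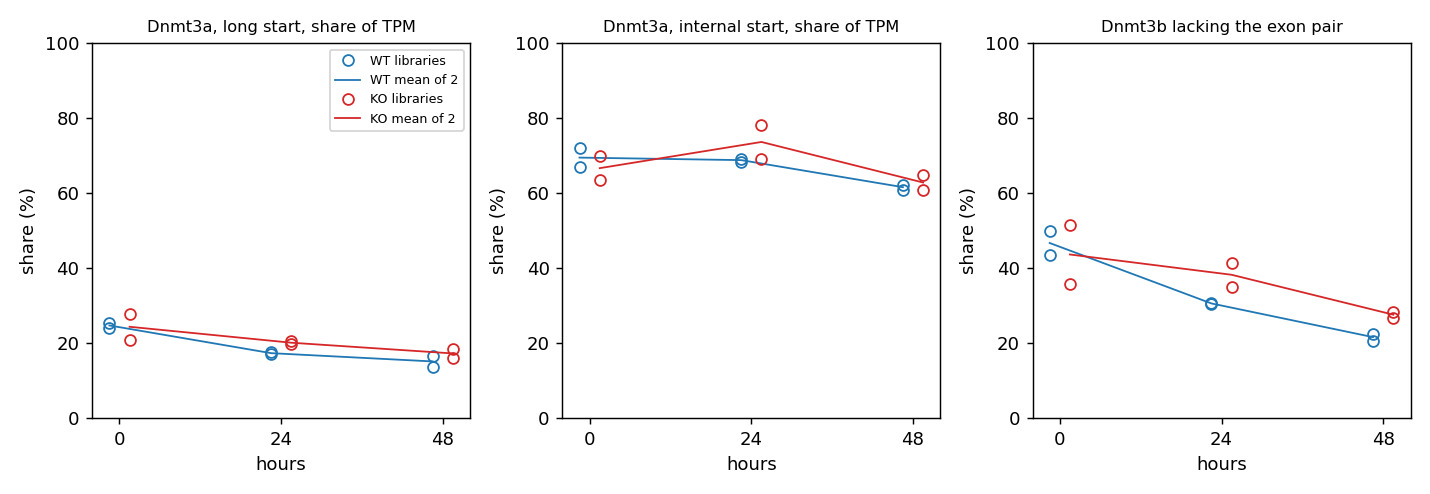
Share in percent of TPM (y axis) against hours for Dnmt3a transcripts from the upstream starts, Dnmt3a transcripts from the internal start, and full-length Dnmt3b transcripts without the 70- and 119-base exons. Circles are single libraries and lines the mean of 2, blue for WT and red for KO. The Dnmt3b share goes from 35.9 to 51.5% at 0 h to 20.7 to 28.5% at 48 h.

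Around the 9 genes, a list of 46 genes that work with them (partners of maintenance and de novo methylation, readers, TET partners, excision repair and methyl donor enzymes) was described by its counts. From 0 h to 48 h, 13 rose and 7 fell in WT, where 11.1% of all genes rose and 12.5% fell. In KO 11 rose and 5 fell, where 12.1% rose and 12.8% fell. The medians were -0.02 and -0.01. Cxxc4, a CXXC-domain gene linked to Tet2, had the largest change in WT (edgeR, log2 fold change 4.27, SE 1.39, adjusted p = 0.03), at 0.122 and 0.0452 TPM at 0 h and 1.4 and 0.907 TPM at 48 h. Gadd45g, a stress gene of the DNA demethylation literature, rose in WT and KO (3.86 and 3.59, adjusted p = 1.2e-07 and 2.3e-07), from 2.47 and 1.05 TPM to 24.8 and 28.6 TPM in WT, and Gadd45a rose in both as well (0.93 and 1.13). Prdm14, a repressor of the Dnmt3 genes in naive cells, fell (-1.67 in WT and -2.09 in KO). The reader Zbtb33 rose in WT and KO (1.09 and 0.70), and Zfp57, which guards imprints, fell in both (-0.85 and -0.92).

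Between genotypes, 3 of the 46 were called over all times, beside 5.03% of all genes: Zbtb24, a gene of the ICF syndrome family, was lower in KO (edgeR, log2 fold change -0.75, SE 0.12, adjusted p = 8.8e-04), and Mbd1 (0.41, SE 0.11) and Zfp57 (0.19, SE 0.05) were higher. Zbtb24 held 9.62 and 11.4 TPM in WT and 6.63 and 7.69 TPM in KO at 0 h. It lies on chromosome 10 (chr10:41450383-41465574), outside the 1 Mb described around Tet1, and the genes beside it were not described. No gene of the list had a genotype difference that changed from 0 h to 48 h by the edgeR test (2 at an unadjusted p under 0.05, beside 1003 of all genes).

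Genes whose promoter methylation is known to silence them outside the germline were described as a readout list of 16, 15 of them tested. From 0 h to 48 h 4 rose and none fell in WT (median log2 fold change 0.82, beside 11.1% of all genes higher), and 10 rose and none fell in KO (median 1.20, beside 12.1% higher), while Dnmt3a and Dnmt3b rose as given above. Without KO 24 h replicate 1, 7 were called in WT. Tdrd1, a piRNA pathway gene, rose in WT from 0.654 and 0.532 TPM to 2.38 and 3.54 TPM (2.31, SE 0.39, adjusted p = 1.6e-04, edgeR) and Tex19.1 from 37.6 and 25.5 TPM to 73.2 and 67.6 TPM (1.23, SE 0.14, adjusted p = 1.4e-06). The difference between the genotypes in these changes was called for none of the 15 by edgeR (4 at an unadjusted p under 0.05, beside 1003 of all genes), so 10 against 4 is not shown to differ. Over all times 2 were lower in KO, where 2.84% of all genes were, Sycp3 (-0.78, SE 0.15) and Tuba3a (-0.62, SE 0.11), both named after their values were seen. Sycp3 lies on chromosome 10 as well (chr10:88459569-88473236), also outside the 1 Mb described around Tet1. Zfp42, also sensitive to methylation but a pluripotency gene and so counted apart, fell in WT (-1.52) and KO (-1.80).

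Dnmt1 and Uhrf1 are made mostly in dividing cells, and 20 genes of S phase were described beside them. In WT 3 rose and 4 fell over 48 h (median 0.00), beside 11.1% and 12.5% of all genes, and in KO 6 rose and 1 fell (median 0.08), beside 12.1% and 12.8%. The largest called change in WT was that of Ccne1, which encodes cyclin E1 (0.44, SE 0.08), upward. Dnmt1 and Uhrf1 were lower at 48 h in WT, as were the 4 called genes that fell, and 3 went the other way. KO against WT over all times, 1 of the 20 was called higher and 1 lower, beside 2.19% and 2.84% of all genes.

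The genes whose log2 CPM (counts scaled to library size) followed a member most closely over the 12 libraries, which share their time and genotype groups, were found among 11980 tested genes. For Dnmt3b these were Pim2 (r = 0.998), Esrp1 (r = 0.995), Pcdh1 (r = 0.994), and for Dnmt3a Tnfrsf19 (r = 0.992), Mycn (r = 0.992), P3h4 (r = 0.991). For Tet2 they were Hmga2 (r = 0.989), Slc2a3 (r = 0.988), Ak4 (r = 0.986), and for Dnmt3l Pdlim1 (r = 0.948), Epas1 (r = 0.948), D1Pas1 (r = 0.936). The values are Pearson correlations and descriptions of these libraries.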

How the data were processed

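The authors trimmed reads from stranded poly(A) RNA libraries with Trimmomatic 0.33 and quantified them on mouse transcripts (mm10, GRCm38) with kallisto 0.43.1, whose deposited tables give estimated counts and TPM for 115270 transcripts in each of the 12 libraries. The transcript set and the strand setting are not given in the sources used here. Transcripts were matched to GENCODE M21 (98.5%, the unmatched holding 0.659 to 0.709% of counts) and both units summed per gene, and estimated counts were rounded. edgeR 4.0.16 (R 4.3.3; TMM, filterByExpr, robust quasi-likelihood, 1 mean per group, all 12 libraries) tested 17424 genes, with Benjamini-Hochberg adjustment over all of them and a threshold of 0.05. TPM shares were compared by two-sided exact permutation tests. Alternatives used DESeq2 1.42.0, limma 3.58.1 on log2(TPM + 1) or log2(TPM + 0.1), other filters, length offsets, covariates and leaving out each library. Genes named were the 9 members, the called neighbours nearest to Tet1, the called list genes with the largest changes, and the 3 genes most correlated with Dnmt3a, Dnmt3b, Dnmt3l and Tet2. A further gene that this rule names is not reported here. Members and lists were chosen with earlier results of these data known. Statistics were tested on simulated data. Replicate libraries differed by more than counting noise. Same-numbered libraries did not deviate together (correlations of -0.0486 to 0.0508 over 15 pairs of groups). Depth (28998188 to 38509860 counts) sets the error of rare transcripts.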

Additional observations from a re-analysis of the deposited data

Results flagged for a closer look

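Dnmt3l was marked because its KO against WT difference at 48 h minus that at 0 h, on the log2 scale, was 0.70 (95% interval 0.47 to 0.92, adjusted p = 0.011, edgeR interaction test). The difference went from -0.43 at 0 h to 0.27 at 48 h. The call was lost with length offsets (adjusted p = 0.23), with limma on either log2 TPM scale (adjusted p = 0.6 and 0.55) and without 1 of 3 libraries named in the results. Over all genes the main fit called 7, length offsets 2 and limma 0 on either scale. Aire, which overlaps Dnmt3l on the other strand, was lower in KO over all times (-0.55), and its part in the Dnmt3l values was not tested.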

How the results depend on the processing

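Limits: 2 libraries a group, 1 KO clone, and transcript shares that rest on kallisto's division of shared reads. No tested value of the 9 genes changed direction in a call under any alternative. Over the alternatives other than leaving out a library, 977 values kept their side of the threshold, 54 lost it and 40 gained it, and with a library left out 1226, 42 and 28 did. The number of the 9 called from 0 h to 48 h was within 1.5 times of 9 in WT and 6 in KO throughout. From 0 h to 24 h it was 2 to 5 in WT with 1 library left out and 3 in KO by limma on either scale. From 24 h to 48 h it was 4 in WT by limma on either scale, and with 1 library left out it was 4 to 8 in WT and 4 to 8 in KO. KO against WT at 0 h, 4 were called by DESeq2, 5 with no filter, 4 with the number of genes detected as a covariate, 0 with length offsets, 0 by limma on either scale, and 0 to 6 with 1 library left out. At 24 h, 4 were called with no filter, 4 with the covariate, 1 with length offsets, 0 by limma on either scale, 0 in a fit of the compared groups alone, and 0 to 3 with 1 library left out. At 48 h, 1 was called by DESeq2, with no filter, with at least 10 counts in every library, with the replicate block, with the covariate and in a fit of the compared groups alone, and 0 to 1 with 1 library left out. Over all times 5 were called with no filter, 1 by limma on either scale, and 3 to 5 with 1 library left out. For the difference between times, 2 were called by DESeq2 at 48 h minus 0 h, 0 with length offsets, 0 by limma on either scale and 0 to 1 with 1 library left out, and at 24 h minus 0 h 0 to 1 with 1 library left out. Counts over all genes moved under these settings as well. At 0 h, beside 220, they were 375 by DESeq2, 386 with no filter, 62 with length offsets and 20 and 18 by limma. At 24 h, beside 255, they were 449, 615, 64, 20 and 14 in that order. At 48 h, beside 117, they were 232, 303, 19, 23 and 22. A fit of the compared groups alone called 13 at 24 h and 178 at 48 h. The cause was not tested.

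Dnmt3a, Dnmt3b and Tet1 stayed called over all times in each of the 12 fits with 1 library left out (largest adjusted p = 0.011, 0.022 and 0.046, edgeR). Limma lost Dnmt3a and Dnmt3b there (adjusted p = 0.11 and 0.2 with a pseudocount of 1) and length offsets lost Dnmt3b (adjusted p = 0.11).

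The replicate numbers did not pair the libraries. With the replicate block no call was lost and 3 were gained: Dnmt3b KO against WT at 0 h (-0.26, adjusted p = 0.049), Tet1 at 48 h (-0.80, adjusted p = 0.019) and Tet2 over all times (0.36, adjusted p = 0.024).

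The share of the short form of Dnmt3a at 48 h minus 0 h was reversed in estimated counts (6.0 points) and among transcripts with over 2000 coding bases (5.45 points, an alternative chosen after seeing the data), where the long form moved by -5.45 points (exact permutation p = 0.057). With 1 library left out the short form ranged from -7.42 to -4.54 points, the long form from -9.57 to -7.27 and the Dnmt3b skipping form from -23.7 to -18.5. Within 2 Mb, 25 of 38 tested genes were called lower and none higher beside Tet1, 4 and 1 of 78 beside Dnmt3l, and 2 and 3 of 93 beside Tdg. Of all genes, 2.84% were called lower and 2.19% higher. With length offsets, the calls were 1 in the list of 46 KO against WT, 2 in WT and 5 in KO in the germline list over 48 h, and 3 in WT, 3 in KO and 0 KO against WT in the S phase list. Without KO 24 h replicate 1, 7 germline genes were called in WT.

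Over all genes, where an alternative moved a count by more than 1.5 times, the counts were 2487 to 2627 beside 4118 for 48 h against 0 h in WT, 2506 to 2817 beside 4348 for 48 h against 0 h in KO, 1296 to 1680 beside 2615 for 24 h against 0 h in WT, 1598 to 5142 beside 3236 for 24 h against 0 h in KO, 420 to 2218 beside 1418 for 48 h against 24 h in WT, 702 to 3723 beside 1733 for 48 h against 24 h in KO, 18 to 436 beside 220 for KO against WT at 0 h, 13 to 2327 beside 255 for KO against WT at 24 h, 19 to 303 beside 117 for KO against WT at 48 h, 189 to 2506 beside 877 for KO against WT over all times, 0 to 1070 beside 2 for the KO against WT difference, 24 h minus 0 h and 0 to 123 beside 7 for the KO against WT difference, 48 h minus 0 h. Another scaling moved the median of all genes by at most 0.0156 on the log2 scale.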
